A study of Rattus norvegicus with 2 samples.

Results

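The haemoglobin chain genes described here were the 5 number-only entries of the deposited urine table whose NCBI gene ID carries the symbol Hba-a1, Hba-a2, Hbb, Hbb-b1 or Hbb-bs, out of 16484 such gene IDs and 113011 features in all. The rule used symbols and no values, but was set with earlier results of these data known. RNA had been sequenced from the urine of Sprague Dawley rats in 2 libraries, 1 labelled WT and 1 labelled UUO. The labels give postnatal day 56 as the age of both. UUO stands for unilateral ureteral obstruction: the right ureter of rats aged 8 weeks was ligated, and samples were taken 2 weeks later. The WT rats had the same surgery without ligation, so WT means sham-operated here and no allele is named for either group. Per the study's methods, urine was drawn through a catheter from the ureter in both groups, and how many rats gave urine to 1 library is not given in the sources used here.

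Haemoglobin, the oxygen carrier of red cells, is built from a pair of alpha chains and a pair of beta chains, each holding a haem group. Rodents carry several copies of each adult gene, in an alpha cluster and a beta cluster on different chromosomes, beside embryonic genes that are silenced before birth. The messenger RNAs are made in red-cell precursors of the bone marrow and persist in reticulocytes, the young red cells of the blood. The kidney filters little intact haemoglobin, and the proximal tubule takes up what passes through the receptors megalin and cubilin.

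The 5 genes were all much more abundant in UUO urine. Values are FPKM, the fragments counted per kilobase of transcript and scaled by the authors to a fragment total that the sources used here do not give. There is 1 value per gene and library, so that there is no spread between animals to test a difference against. The table's condition names are abbreviations. They were read as UUO and WT because the study's lists of urine features show the same values under the headings UUO and sham, for 234 of 234 features compared, and the directions given here rest on that reading. In a bulk library, more cells of a type and more RNA in each cell cannot be told apart. The study's methods state that urine was centrifuged before storage and again before RNA isolation, without saying which fraction was kept. RNA from within cells and RNA free in the urine therefore cannot be told apart either.

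Sequence upstream of each gene is shown because the 5 genes moved together and because it tells the copies apart. The 250 bases before the annotated start come from RefSeq on build GRCr8, 5′ to 3′ on the strand of the gene, with capitals marking 4 motifs. These are the TATA-type letters ATAAA and the CCAAT box on the strand of the gene, CACCC on either strand, and the GATA box on either strand, searched as AGATAA or AGATAG or TGATAA or TGATAG. All genes lie on the minus strand. No 2 capitalised motifs overlap. The window of Hba-a1 lies at chr10:15842581-15842830, Hba-a2 at chr10:15829139-15829388, Hbb at chr1:167663722-167663971, Hbb-b1 at chr1:167643521-167643770, Hbb-bs at chr1:167631631-167631880 and Hba-a3, a further alpha copy that is no member, at chr10:15816944-15817193.
Hba-a1: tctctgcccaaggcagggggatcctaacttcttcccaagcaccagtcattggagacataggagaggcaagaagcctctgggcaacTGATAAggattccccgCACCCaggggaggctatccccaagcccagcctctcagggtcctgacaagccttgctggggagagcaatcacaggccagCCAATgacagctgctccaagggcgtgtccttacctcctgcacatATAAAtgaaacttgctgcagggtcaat
Hba-a2: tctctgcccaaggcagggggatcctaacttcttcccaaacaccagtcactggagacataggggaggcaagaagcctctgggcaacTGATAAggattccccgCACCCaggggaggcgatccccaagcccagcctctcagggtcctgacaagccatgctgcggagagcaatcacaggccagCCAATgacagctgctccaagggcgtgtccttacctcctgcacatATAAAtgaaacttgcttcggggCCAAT
Hba-a3: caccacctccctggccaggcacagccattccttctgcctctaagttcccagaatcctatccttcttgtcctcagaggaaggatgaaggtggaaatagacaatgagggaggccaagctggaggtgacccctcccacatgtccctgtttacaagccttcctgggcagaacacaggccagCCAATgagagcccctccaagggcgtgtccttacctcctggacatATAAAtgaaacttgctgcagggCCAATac
Hbb: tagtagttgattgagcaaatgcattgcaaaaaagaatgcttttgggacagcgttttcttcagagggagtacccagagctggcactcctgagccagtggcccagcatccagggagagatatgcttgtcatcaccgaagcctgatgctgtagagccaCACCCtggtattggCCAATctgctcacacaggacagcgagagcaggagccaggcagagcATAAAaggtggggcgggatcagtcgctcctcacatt
Hbb-b1: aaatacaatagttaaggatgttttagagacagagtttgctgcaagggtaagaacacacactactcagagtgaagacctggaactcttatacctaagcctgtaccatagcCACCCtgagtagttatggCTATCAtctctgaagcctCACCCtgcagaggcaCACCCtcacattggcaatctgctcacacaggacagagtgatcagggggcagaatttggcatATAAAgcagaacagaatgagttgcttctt
Hbb-bs: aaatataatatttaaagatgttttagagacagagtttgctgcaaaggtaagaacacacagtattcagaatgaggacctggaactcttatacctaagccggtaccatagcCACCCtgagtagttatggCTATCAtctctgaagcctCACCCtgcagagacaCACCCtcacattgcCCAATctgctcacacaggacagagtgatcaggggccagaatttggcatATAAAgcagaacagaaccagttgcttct

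The upstream windows of Hba-a1 and Hba-a2 were 96.4% identical in a global alignment, those of Hbb-b1 and Hbb-bs 93.6%. Hbb stood apart from both other beta genes, at 60.5% and 60.9% identity. Hba-a3 was 63.9% identical to Hba-a1. The letters ATAAA fell between 40 and 20 bases upstream of the start in 5 of the 5 members, and in 3.23% of 27457 promoters of the same length. CCAAT fell between 90 and 60 bases upstream in 4 of the 5, and in 3.41% of all promoters. Hbb-b1 lacks these letters on its own strand. Hba-a3, which is no member, has ATAAA and CCAAT inside the same windows, starting 29 and 73 bases upstream. CACCC lay between 110 and 70 bases upstream in the 3 beta genes and in neither alpha gene, against 11.3% of all promoters. Anywhere in the 250 bases, ATAAA was present in 5 of the 5 members and 25.3% of promoters, and CCAAT in 4 of the 5 and 19.1%. In the same 250 bases, CACCC was present in 5 of the 5 members and 49.4% of promoters. The GATA box was present in 4 of the 5 and 26.7%, Hbb being the member without it. A match of letters is a description and not a bound site.

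Of the alpha genes, Hba-a1 (gene ID 25632, chromosome 10, 15497864 to 15498745) measured 1576 FPKM in WT and 22399 FPKM in UUO urine, 14.2 times higher. Hba-a2 (gene ID 360504, chromosome 10, 15484428 to 15485308) had 620 in WT against 9167 in UUO urine, 14.8 times higher. Both encode the alpha chain, and their increases were almost the same, with log2 differences of 3.83 and 3.88 on the scale of log2(FPKM + 1). Copies of a globin gene can share reads, so the likeness may depend on how the authors divided such reads between the pair. Coordinates are those of the deposited table, whose build is rn5 per the submitters' processing notes. They are the merged spans of overlapping entries, so that exons and introns are not separated.

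Of the beta genes, Hbb (gene ID 24440, chromosome 1, 175127943 to 175136093) measured 877 FPKM in WT and 54777 FPKM in UUO urine, 62.5 times higher, a log2 difference of 5.96. It is the main adult beta chain gene of these libraries. Hbb-b1 (gene ID 361619, chromosome 1, 175104272 to 175111783) had 64.0 in WT against 1150 in UUO urine, 18.0 times higher. Hbb-bs (gene ID 689064, chromosome 1, 175098753 to 175100161) had 28.3 in WT against 775 in UUO urine, 27.4 times higher. The study counted the gene IDs of Hbb-b1 and Hbb-bs among long noncoding RNAs, whereas RefSeq lists both as protein-coding, as it does the other 3 members. It also chose both IDs for qRT-PCR of urine. There it named 689064, but not 361619, among the RNAs detected in UUO urine, and reported the direction of its sequencing for those detected. As listed, the 3 beta genes thus differed more from one another in their increase than the alpha genes did. The part of shared reads in this was not tested.

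**Figure D1:**
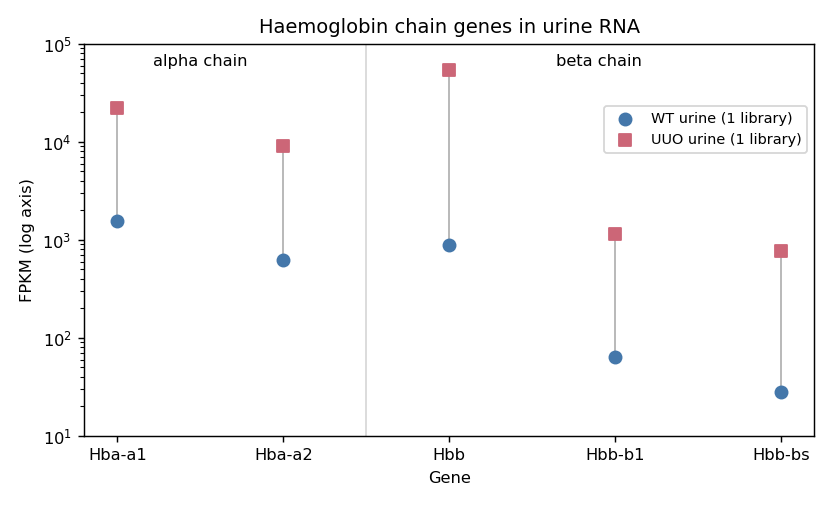
FPKM (log axis) of each haemoglobin chain gene in the WT library (blue circles) and the UUO library (red squares), 1 value per gene and library. Every UUO value lies above its WT value, and the gap is widest for Hbb, 877 against 54777.

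By the limit of 2-fold, 5 of the 5 members were higher in UUO urine, where 25.7% of 9853 number-only genes with FPKM of 1 or more in either library were higher and 36.5% lower. Over all 28802 features past that minimum 49.2% were higher. Among the 7218 genes with FPKM of at least 1 in both libraries 7.01% were higher. The median log2 difference was 4.15 over the members and -0.81 over those 7218 genes. In the order of that difference Hbb came first of the 7218, Hbb-bs 5th, Hbb-b1 8th, Hba-a2 10th and Hba-a1 12th. Of the 7218 genes 12 (0.166%), and of the 9853 genes 141 (1.43%), reached the value of the lowest member. Among the 9853 genes Hbb was not first, since Alas2, below FPKM of 1 in WT urine, had a log2 difference of 8.30.

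The share of the FPKM total does not move when a library is rescaled by 1 factor. Together the members held 0.402% of the summed FPKM of all features in WT against 17.3% in UUO urine. Among number-only genes alone the shares were 0.937% and 32.5%, of which Hbb held 0.26% and 20.2%. In the order of FPKM among 16484 gene IDs, Hba-a1 was 11th, Hbb 25th and Hba-a2 48th in WT urine, while Hbb-b1 stood at rank 1068 and Hbb-bs at rank 2489. The highest gene IDs of WT urine, the secretoglobin genes Scgb1d2 (9354 FPKM) and Scgb1d4 (6798 FPKM), were listed at 0 in UUO urine, and their part in the shares and ranks was not tested. In UUO urine Hbb, Hba-a1 and Hba-a2 were the 3 highest gene IDs, and Hbb-b1 and Hbb-bs stood at ranks 9 and 16.

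**Figure D2:**
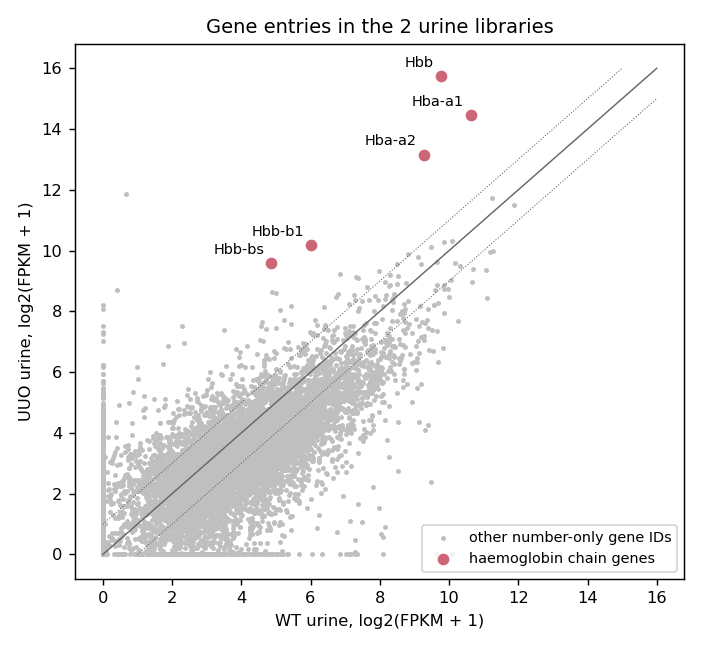
Each number-only gene ID by its level in WT urine (x axis) and UUO urine (y axis), both as log2(FPKM + 1), with the 5 haemoglobin chain genes in red. The solid line marks equal values and the dotted lines a 2-fold difference, and the 5 genes lie far above the upper dotted line.

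Direction was the same for all 5 genes under 6 rescalings of the UUO library, but size was not. Summed over the members, FPKM was 3165 in WT against 88268 in UUO urine, 27.9 times higher as deposited. The ratio was 177 when the 75th percentiles of the values above 0 in each library were made equal, which multiplies UUO values by 6.34 and puts the median of the 7218 genes at a log2 difference of 1.70, against -0.81 as deposited. It was 2.93 when that percentile was taken over features above 0 in either library, which multiplies them by 0.105 and puts that median at -3.10. Under this last rescaling Hba-a1 (0.58), Hba-a2 (0.63) and Hbb-b1 (0.91) fell short of a log2 difference of 1. The other 4 rescalings kept every member past 2-fold.

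The balance between the chains differed between the libraries. Adult haemoglobin holds equal numbers of alpha and beta chains, and FPKM, being per length, allows the transcripts to be compared. The alpha genes summed to 2196 in WT against 31566 in UUO urine, 14.4 times higher. The beta genes summed to 969 and 56702, 58.5 times higher. Alpha over beta was therefore 2.27 in WT urine and 0.557 in UUO urine, and beta over alpha was 0.441 and 1.80. Like a share, this ratio is set within 1 library and does not depend on its scaling.

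Which chain was in excess depended on Hbb and Hba-a1, the most abundant gene of each chain. Hba-a1 over Hbb was 1.80 in WT against 0.409 in UUO urine. Without Hbb the ratio of alpha to beta was 23.8 in WT against 16.4 in UUO urine, so that alpha was in excess in both libraries. Without Hba-a1 it was 0.64 and 0.162, so that beta was in excess in both. Without any one of the other 3 members it stayed above 1 in WT and below 1 in UUO urine.

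Within the alpha genes the copy shares were nearly constant. Hba-a1 held 71.8% of the alpha sum in WT against 71.0% in UUO urine, and Hba-a2 held 28.2% and 29.0%. Hba-a1 over Hba-a2 was 2.54 and 2.44. The limit on shared reads given below for the beta genes holds for these shares as well.

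Within the beta genes the shares moved toward Hbb. Its share of the beta sum was 90.5% in WT against 96.6% in UUO urine. Hbb-b1 held 6.6% and 2.03%, and Hbb-bs 2.92% and 1.37%. Hbb over Hbb-b1 went from 13.7 to 47.6 and Hbb over Hbb-bs from 31.0 to 70.7, while Hbb-b1 over Hbb-bs went from 2.26 to 1.48. In WT urine the last ratio would rest on about 67.5 and 29.8 fragments, by the estimate given below. Its counting error was not calculated. Copies of a globin gene can share reads, their transcript sequences were not compared here, and how the authors divided fragments that match several copies is not given in the sources used here, so each share is less certain than the sum.

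**Figure D3:**
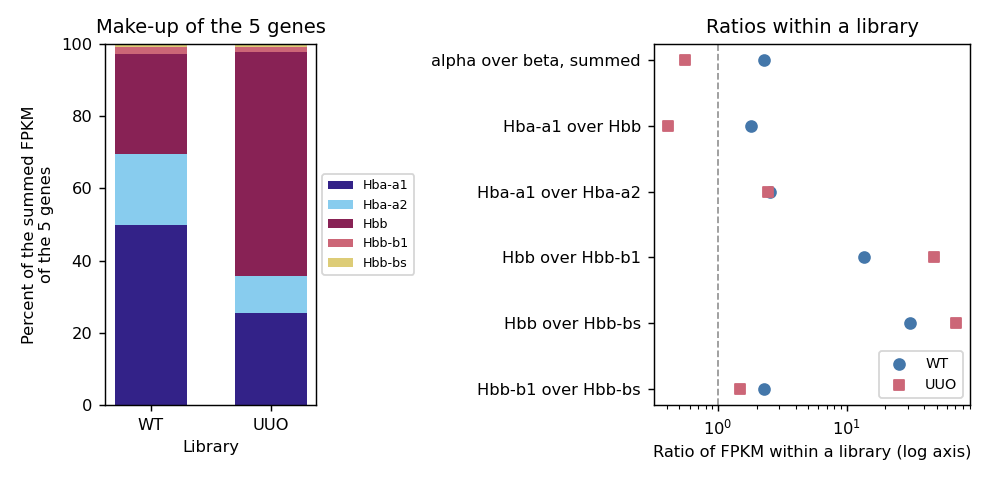
Left, the percent of the summed FPKM of the 5 genes held by each gene in the WT and the UUO library, stacked to 100. Right, ratios of FPKM within a library (log axis, dashed line at equality) for WT (blue circles) and UUO (red squares), where Hba-a1 over Hba-a2 is 2.54 and 2.44 and alpha over beta is 2.27 and 0.557.

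The counts behind the values could be estimated. Read through the steps of FPKM in single assembled features, the normalising totals came to about 2110000 fragments for WT and 2432000 for UUO urine. Totals were searched within a set range, so a depth outside it could not be returned. The study gives read numbers per sample above these totals, and the gap was not examined. For an assumed effective length of 500 bases, 1 fragment was then worth 0.948 FPKM in the WT library and 0.822 FPKM in the UUO library. The lowest member, Hbb-bs in WT urine, would rest on about 29.8 fragments, with a 95% exact Poisson interval of 20.1 to 42.6 fragments, or an FPKM of 19.0 to 40.4. Hbb-b1 in WT urine would rest on 67.5 fragments (52.3 to 85.6). Such intervals cover counting error only, not the difference between rats, and the true lengths of the transcripts were not used.

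The sum over a locus takes in every entry that overlaps a gene. At the 3 loci of the beta genes 21 entries summed to 969 in WT against 56728 in UUO urine, 58.5 times higher. At the pair of alpha loci 8 entries summed to 2196 and 32467, 14.8 times higher. In WT urine the gene entry held 100% of the FPKM at each of the 5 loci. In UUO urine it held 93.0% at Hba-a2, 99.1% at Hba-a1 and between 99.9% and 100% at the beta loci.

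Most database noncoding entries at the globin loci were listed at 0 in WT urine. A listed 0 is no measure of absence, since genes that most cells use, such as Atp5pb, Brd2 and Capns1, were listed at 0 as well. Of all 113011 features, 14941 in WT against 25143 in UUO urine had FPKM of 1 or more. The share of all noncoding entries above 0 was not calculated, so the counts here are not particular to the globin loci. Over the beta cluster of 70.1 kb, 0 of 24 database and assembled entries were above 0 in WT urine and 9 were in UUO urine, summing to 28.1. Over the alpha cluster of 33.7 kb, 2 of 14 were above 0 in WT against 13 in UUO urine, summing to 15.4 and 969. The highest was NONRATT010707 at the locus of Hba-a2, listed at 0 in WT and with an FPKM of 615 in UUO urine. NONRATG005531 at the locus of Hba-a1 was listed at 0 and at 208. They share their loci with the gene, so fragments of the globin messenger RNA and of these entries cannot be told apart here.

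Of the remaining globin genes Hba-a3 had the highest values. Hba-a3 (gene ID 287167), a further alpha copy, measured 42.0 FPKM in WT and 192 FPKM in UUO urine, 4.58 times higher, although it was lower in UUO urine under the rescaling by 0.105. Its level exceeded that of Hbb-bs in WT urine and was below every member in UUO urine. Its increase was smaller than that of any member, and Hba-a1 over Hba-a3 was 37.5 in WT against 116 in UUO urine. Hbbl1, a beta-like gene that shares the locus of Hbb, was listed at 0 in both libraries. The embryonic genes Hbe1, Hbe2 and Hbg1 were also listed at 0 in both, and Hbz, the embryonic alpha-type gene, at 0 in WT against 0.0356 in UUO urine. Outside the clusters, cytoglobin (Cygb) was listed at 0 and at 1.47, myoglobin (Mb) at 0 and 0.289 and neuroglobin (Ngb) at 0 and 0.278. Hbq1, Hbq1b, Hbm and Hbb-b2 were sought as well, but no number-only gene ID carried these symbols.

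The genes beside the clusters did not share the level of the globins. The olfactory receptor genes that flank the beta cluster, Or52a5, Or52z1, Or51b4 and Or51b17, were listed at 0 in WT urine and between 0 and 0.793 in UUO urine. Beside the alpha cluster Fam234a had 17.8 in WT against 14.9 in UUO urine and Luc7l 0 and 3.25. On the other side, Nprl3, whose introns hold the distant alpha globin enhancers, had 10.2 and 0.140, and Mpg, a DNA repair enzyme gene, 0 and 8.00. None of these 8 neighbours reached the lowest member, Hbb-bs, in either library.

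**Figure D4:**
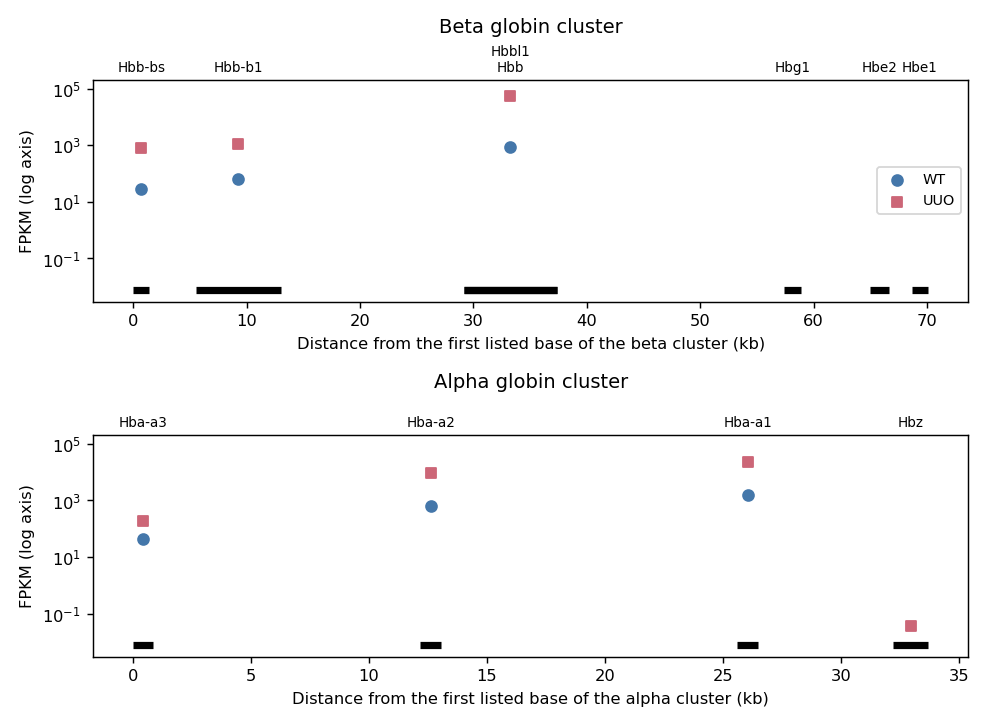
FPKM (log axis) of the gene entries of the beta cluster (top) and the alpha cluster (bottom) against distance in kb from the first listed base of the cluster, for WT (blue circles) and UUO (red squares). Black bars are the listed spans, and an entry without a point is listed at 0, as are Hbbl1, Hbg1, Hbe2 and Hbe1, while the points at the span shared by Hbbl1 and Hbb are those of Hbb.

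Genes that act with the globins gave a mixed picture. A list of 42 genes (other globins, haem synthesis, partners and clearance, and regulators of globin genes) had 38 entries in the table, of which 30 had FPKM of 1 or more in either library. By the 2-fold limit 13 of these 30 were higher and 12 lower in UUO urine, beside 25.7% higher and 36.5% lower in all number-only genes, and their median log2 difference was 0.47. Under each of the 75th percentile rescalings 9 of the 30 changed direction, and 0 did under the other 4.

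As deposited, the isoenzymes of the first step of haem synthesis went opposite ways. Alas2, the red-cell form of the first and rate-limiting enzyme, measured 0.317 FPKM in WT and 414 FPKM in UUO urine. Alas1, the form of other tissues, had 100 in WT against 18.0 in UUO urine, and was the other way round only under the rescaling by 6.34. Alad, the next enzyme, had 148 and 25.8, with the same exception. Urod had 13.3 in WT against 107 in UUO urine and Fech, which inserts the iron, had 9.66 and 26.7, both reversed under the rescaling by 0.105. Ppox, the enzyme before it, had 25.4 and 9.52, reversed under the rescaling by 6.34. Uros, at 6.52 and 8.37, and Cpox, at 9.21 and 18.7, did not pass the 2-fold limit on the log2(FPKM + 1) scale. By that limit 3 genes of the pathway were higher and 3 lower.

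Among partners, Ahsp, which encodes the chaperone of free alpha chains, had 14.3 in WT against 73.0 in UUO urine, a smaller increase than that of either alpha gene, and it was lower in UUO urine under the rescaling by 0.105. Hmox1, the inducible enzyme that breaks down haem, was listed at 0 in WT and at 158 in UUO urine. The constitutive form Hmox2 had 50.9 and 24.1, reversed under the rescaling by 6.34. Biliverdin reductase A (Blvra), the next step of haem breakdown, had 138 and 11.7, and Blvrb, the reductase that is abundant in red cells, 60.6 and 31.7, reversed under the rescaling by 6.34. The uptake receptors of the proximal tubule were all lower in UUO urine as deposited, with cubilin reversed under the rescaling by 6.34. Megalin (Lrp2) had 38.7 in WT, 6.45 times its level in UUO urine, cubilin (Cubn) had 4.29 and 0.706, and amnionless (Amn), the anchor of cubilin, had 21.1 and 0.972. Haptoglobin (Hp) and haemopexin (Hpx), the plasma carriers of free haemoglobin and haem, were listed at 0 in WT and at 1.21 and 1.25 in UUO urine. Cd163, the receptor of the haptoglobin complex, was listed at 0 in both.

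Of the transcription factors that act on globin genes, Klf1, which binds CACCC letters, was listed at 0 in WT and at 18.6 in UUO urine. Nfe2, a red-cell and platelet factor, was listed at 0 and 13.3 and Tal1 at 0 and 1.51. Lyl1 had 9.23 in WT against 37.9 in UUO urine, reversed under the rescaling by 0.105. The cofactors Lmo2 (68.6 and 13.8), Ldb1 (26.2 and 9.24) and Zfpm1 (24.1 and 8.69) were higher in WT urine, except under the rescaling by 6.34. Bach1, a repressor released by haem, had 3.80 and 6.39, reversed under the rescaling by 0.105. Gata1, which defines red-cell precursors, was listed at 0 in both libraries, and Bcl11a, the silencer of embryonic globin genes, had 2.34 in WT and was listed at 0 in UUO urine.

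**Figure D5:**
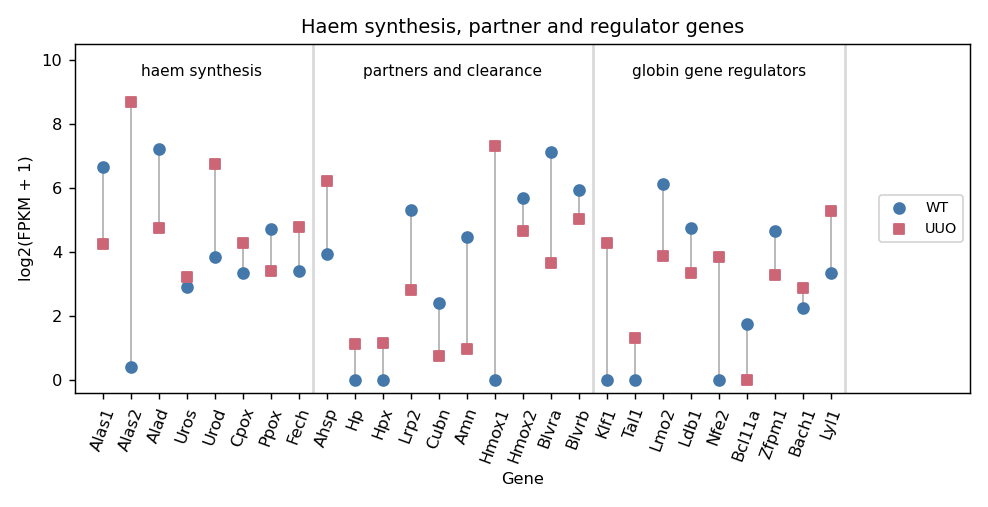
Levels as log2(FPKM + 1) of the genes of haem synthesis, partners and clearance, and regulation that are named in the text and have FPKM of 1 or more in either library, for WT (blue circles) and UUO (red squares), joined by a line per gene. Alas2 stands far higher in UUO urine (0.317 against 414 FPKM) while Alas1 stands higher in WT urine (100 against 18.0) except under the rescaling by 6.34, and a point at 0 is a gene listed at 0.

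Most markers of blood cells were also listed at higher values in UUO urine as deposited. Of 10 red-cell markers outside haemoglobin 9 were listed, Alas2 among them, and 7 had FPKM of 1 or more in either library. The red-cell anion exchanger Slc4a1 went from 0.976 to 70.3, and Bpgm, the enzyme of 2,3-bisphosphoglycerate, from 23.3 to 199, reversed under the rescaling by 0.105. The 9 listed genes summed to 30.1 in WT against 729 in UUO urine, of which Alas2 made 414, and 4 of the 9 were listed at 0 in WT urine. Car1, a red-cell carbonic anhydrase, was listed at 0 in both. The 4 platelet markers listed summed to 0 and 207, with Pf4 at 0 and 182, and 4 of the 4 were listed at 0 in WT urine. The 8 leukocyte markers summed to 7.55 and 138 with 7 of them listed at 0 in WT urine, among them the pan-leukocyte gene Ptprc at 0 and 3.33, and the T cell gene Cd3e was listed at 0 in both. Of all number-only gene IDs, 47.3% in WT against 56.3% in UUO urine had FPKM of 1 or more, so low listed values are common. Among those with FPKM of 1 or more in either library, 25.7% were higher and 36.5% lower by the 2-fold limit. A marker listed at 0 is no measure of absence. The part of these cells in the globin values was not tested.

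Markers of the urinary tract were listed above 0 in both libraries, except the basal urothelial keratin Krt5, which was listed at 0 in WT and at 51.8 in UUO urine. The 5 urothelium markers summed to 779 in WT against 1100 in UUO urine (2 higher by the 2-fold limit, 0 lower), and the 6 tubule markers to 178 and 96.8 (0 higher, 2 lower). Among all number-only genes with FPKM of 1 or more in either library, 25.7% were higher and 36.5% lower. The differences of both marker lists depended on the scaling. The tubule genes Umod, Slc12a1 and Aqp2 were lower in UUO urine as deposited but higher under 4 of the 6 rescalings. Slc34a1, the phosphate carrier of the proximal tubule, was higher under the rescaling by 6.34. Of the urothelium genes, Upk1a, Upk2 and Upk3a were lower in UUO urine under the rescaling by 0.105. Upk1b was lower as deposited but higher under several rescalings, among them that by 6.34. The plasma protein genes of the liver, Alb and Apoa1, were listed at 0 in both, and Ttr had 9.90 and 1.56.

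The genes most like the members in pattern were taken from 221 number-only genes outside the globins with FPKM of at least 1 in WT and at least 100 in UUO urine, as the 5 whose log2 difference came nearest to the members' median of 4.15. They were Igfbp7 (10.4 in WT against 167 in UUO urine), G0s2 (28.3 and 394), the ribosomal protein genes Rps27 (4.13 and 124) and Rplp1 (31.2 and 392), and Tent5c (2.68 and 114). Their log2 differences lay between 3.61 and 4.97. With 2 libraries this likeness rests on 1 difference per gene. None of them came near the level of Hba-a2 in UUO urine, 9167.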

How the data were processed

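Urine RNA of 1 WT and 1 UUO library was used. The authors removed ribosomal RNA, made strand-specific libraries, aligned reads with Bowtie2 2.0.6 and TopHat2 2.0.9 to rn5, and used Cufflinks 2.1.1 and Cuffdiff 2.1.1, per the study's methods and the submitters' processing notes. The deposited table gives FPKM by the authors, scaled to a total that is not given in the sources used here. Its columns of the authors' own comparison (ratio, statistic, p-value, q-value) were not used. The methods for urine name a column kit and the labels Trizol.

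Symbols came from RefSeq (GRCr8) for 16329 of 16484 number-only IDs (99.1%). Differences were taken on log2(FPKM + 1), counted at 2-fold where FPKM was at least 1 in either library, and calculated with pandas 2.3.3 and numpy 2.4.6 in Python 3.11.15. Without replicates no test was run. Upstream windows were aligned with Biopython 1.88. Fragment totals were fitted to single assembled features of 400 to 1200 bp, where 99.2% of 129 WT and 99.7% of 3474 UUO values lay within 0.1 of a whole number. The calculations were tested on simulated data, for the fragment totals only with a true total inside the searched range. The members, gene lists and settings were chosen with earlier results of these data known. Named genes are the members, listed partner genes with FPKM of at least 1, and the 5 most like genes. Hbbl1, the genes beside the clusters, the embryonic and other globins below 1, and the marker genes were named besides. Some listed genes are not reported here.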

Additional observations from a re-analysis of the deposited data

How the results depend on the processing

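No paired analysis was possible because WT and UUO urine gave 1 library each. A log2 difference is taken as kept when its sign and its side of 1 stay, and a ratio or share when it stays within 1.5 times. Of 126 recomputed values of 24 results, 94 were kept. The summed ratio of the members (27.9) was 43.0 after rescaling to equal sums, 51.8 when the members were left out of those sums, 50.1 by the median ratio of features detected in both libraries, 177 by the 75th percentile of each library, 2.93 by that percentile over features above 0 in either, and 14.6 without Hbb. Under the 2.93 setting the log2 differences of Hba-a1, Hba-a2 and Hbb-b1 dropped to 0.58, 0.63 and 0.91. This setting and the median ratio of features detected in both were added after the data had been seen. The share of the members was 0.937% in WT and 32.5% in UUO urine among number-only genes, and 0.703% in WT urine over loci of at least 500 bp, since fewer features enter the total. The ratio of alpha to beta reversed to 0.64 in WT urine without Hba-a1 and to 16.4 in UUO urine without Hbb, and moved to 23.8 in WT urine without Hbb and 0.162 in UUO urine without Hba-a1.

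The percent of number-only genes higher in UUO urine (25.7%) was 39.7% after rescaling to equal sums without the members, 79.2% and 2.73% by the 2 forms of the 75th percentile, 38.8% by the median ratio of features detected in both, 14.0% at FPKM of at least 5, 7.01% at FPKM of at least 1 in both, 10.7% at 4-fold, 49.2% over all features and 3.76% with a pseudocount of 10. The percent lower (36.5%) was 20.8% after rescaling to equal sums, 15.6% without the members in them, 3.60% and 93.7% by the 75th percentile, 16.6% by the median ratio of features detected in both, 12.0% at 4-fold and 18.0% with a pseudocount of 10. The cause of these shifts was not tested. The depth limits Hbb-bs in WT urine most, at about 29.8 fragments.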
